A study of Mus musculus with 8 samples.

Results

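The 10 genes described here carry the signal of adrenocorticotropic hormone (ACTH) from the cell surface to protein kinase A. They were chosen by symbol as the ACTH receptor Mc2r, its accessory protein Mrap, the G protein gene Gnas, the protein kinase A subunit genes Prkaca, Prkacb, Prkar1a and Prkar2b, and the phosphodiesterase genes Pde8a, Pde8b and Pde2a. All 10 were among the 18846 genes listed. ACTH binds the melanocortin 2 receptor on adrenocortical cells, and the accessory protein brings that receptor to the plasma membrane. The receptor acts through the stimulatory G protein alpha subunit on adenylyl cyclases, which make cyclic AMP (cAMP). Cyclic AMP releases the catalytic subunits of protein kinase A from the regulatory subunits, phosphodiesterases degrade cAMP, and the kinase drives corticosteroid synthesis.

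RNA was sequenced from adrenal glands of 8 mice of strain 129SVEV, 1 animal per library, and the labels used here name no age. The groups were ACTH-treated Siah1a-/-, untreated Siah1a-/-, ACTH-treated wild type and untreated wild type, each with 1 animal labelled male and 1 labelled female. Siah1a encodes an E3 ubiquitin ligase. ACTH was injected intraperitoneally at 100 µg/kg 1 hour before harvest, and the labels name no vehicle injection, so ACTH and injection cannot be told apart. Values of a group are given for the library labelled male and then for the one labelled female. Levels of 1 gene across libraries are in CPM, counts scaled to library size with TMM factors, and levels of different genes are set side by side in RPKM, which also divides by transcript length.

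Library totals ranged from 8020111 to 29568950 estimated counts. Siah1a averaged 20.7 ± 3.38 CPM in the knockout and 29.5 ± 3.78 CPM in wild type (SD, n = 4 each), a log2 fold change of -0.52 (SE 0.23) that did not pass (edgeR, adjusted p = 0.383), and the files do not show which exons were read. A group of 6 adrenocortical markers (Nr5a1, Star, Cyp11a1, Hsd3b1, Cyp21a1 and Cyp11b1) summed to between 26769 and 50859.5 CPM, so all 8 libraries held cortex. The male-labelled untreated wild-type library held 388 CPM of Xist and 3.06 CPM of Ddx3y, which goes against its label. The label was kept in the sex term of the fits and in the pairs matched by label. By these transcripts sex was balanced neither between the genotypes nor between ACTH-treated and untreated libraries. Its part in the genotype, ACTH and interaction estimates was not tested. The same wild-type library also held 4 kidney markers at 1513 CPM in sum, against at most 7.88 CPM in any other. The female-labelled ACTH-treated wild-type library held 4 liver markers at 57557 CPM, against at most 626 CPM elsewhere. Results are therefore also given without these 2 wild-type libraries. The male-labelled ACTH-treated knockout library held 4 neuronal markers at 417 CPM, against 28.6 to 93.5 CPM in the other 7.

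Start sites of these genes differ in sequence and are shown first for Prkaca, Gnas and Prkar1a, because the share of transcripts from the Prkaca and Gnas starts differed between libraries and because the Prkar1a start was the single one of 28 that held a full cAMP response element. Sequences are those of RefSeq on GRCm38.p6, plus strand, 5′ to 3′, ending at the base before the start. Promoters of 8 of the 10 genes were found. Capitals mark a half-site of the cAMP response element (TGACG on either strand) or a GC box (GGGCGG on either strand).
Prkaca upstream start, chr8:83972728-83972977: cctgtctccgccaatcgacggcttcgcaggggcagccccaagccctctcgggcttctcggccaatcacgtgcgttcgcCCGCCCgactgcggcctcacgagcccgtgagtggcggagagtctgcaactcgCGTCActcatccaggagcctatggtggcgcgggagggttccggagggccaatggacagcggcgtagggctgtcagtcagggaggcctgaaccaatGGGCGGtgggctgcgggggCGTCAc
Prkaca downstream start, chr8:83976633-83976882: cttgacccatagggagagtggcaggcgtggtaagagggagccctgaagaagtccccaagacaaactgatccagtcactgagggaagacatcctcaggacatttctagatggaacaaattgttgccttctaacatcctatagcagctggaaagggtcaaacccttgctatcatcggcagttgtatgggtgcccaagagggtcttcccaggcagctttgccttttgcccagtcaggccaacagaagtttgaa
Gnas most upstream start, chr2:174284070-174284319: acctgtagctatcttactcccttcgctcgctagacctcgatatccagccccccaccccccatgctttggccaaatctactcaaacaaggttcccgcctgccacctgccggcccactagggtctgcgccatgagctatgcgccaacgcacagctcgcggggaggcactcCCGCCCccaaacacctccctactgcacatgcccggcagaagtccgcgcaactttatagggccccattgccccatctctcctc
Gnas downstream start, chr2:174329756-174330005: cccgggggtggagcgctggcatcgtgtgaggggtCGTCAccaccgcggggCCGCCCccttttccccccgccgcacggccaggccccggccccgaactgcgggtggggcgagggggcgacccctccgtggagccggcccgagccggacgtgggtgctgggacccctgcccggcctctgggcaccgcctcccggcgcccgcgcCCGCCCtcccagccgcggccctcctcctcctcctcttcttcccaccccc

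The upstream Prkaca window held 2 half-sites and 2 GC boxes at 68.8% G and C, while neither motif was found in the downstream one (50.8% G and C). The downstream Gnas window held 1 half-site and 2 GC boxes at 80.0% G and C, and the most upstream one held 1 GC box. The full element TGACGTCA lay before a Prkar1a start at chromosome 11, position 109650949. It is shown in capitals within 30 bases of its surroundings.
Prkar1a, chr11:109650889-109650918: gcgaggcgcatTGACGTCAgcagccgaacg
Among all 32851 listed mouse promoters, the 250 bases before the start held the full element in 1.55%, the half-site (which the full element contains) in 17.8% and the GC box in 32.7%. Of the 28 start sites of member genes, 9 held the half-site and 12 the GC box. Some of these windows lie in the same gene and overlap, so a motif can be counted more than once. The motif AGGTCA, a half-site of the NR5A nuclear receptors, was found in 1 of the 28 (Pde8a) and in 14.0% of all promoters. These are letter matches and say nothing about binding.

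The 10 genes covered a wide range of levels in these glands. Gnas averaged 1110 RPKM over the 8 libraries, above 99.9% of the 15361 genes tested. Mrap (285 RPKM), Prkar2b (215), Prkar1a (186) and Mc2r (145) followed, then Prkaca (56.9), Prkacb (32.1), Pde2a (30.7), Pde8b (12.5) and Pde8a (11.4). Gnas lay above Mrap, Mc2r above Prkaca, and Pde2a above Pde8b in every library, with ranges that did not overlap. Prkaca also lay above Prkacb in all 8 libraries, although their ranges overlapped. Neighbours among Mrap, Prkar2b, Prkar1a and Mc2r changed places in 2 or 3 of the 8 libraries, as did Prkacb and Pde2a, and Pde8b lay above Pde8a in 3 libraries. The regulatory subunit mRNA of protein kinase A was almost wholly Prkar2b (44.6% to 56.2% of the regulatory RPKM) and Prkar1a (39.9% to 49.3%), with at most 3.23% from Prkar1b and 5.81% from Prkar2a.

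**Figure D1:**
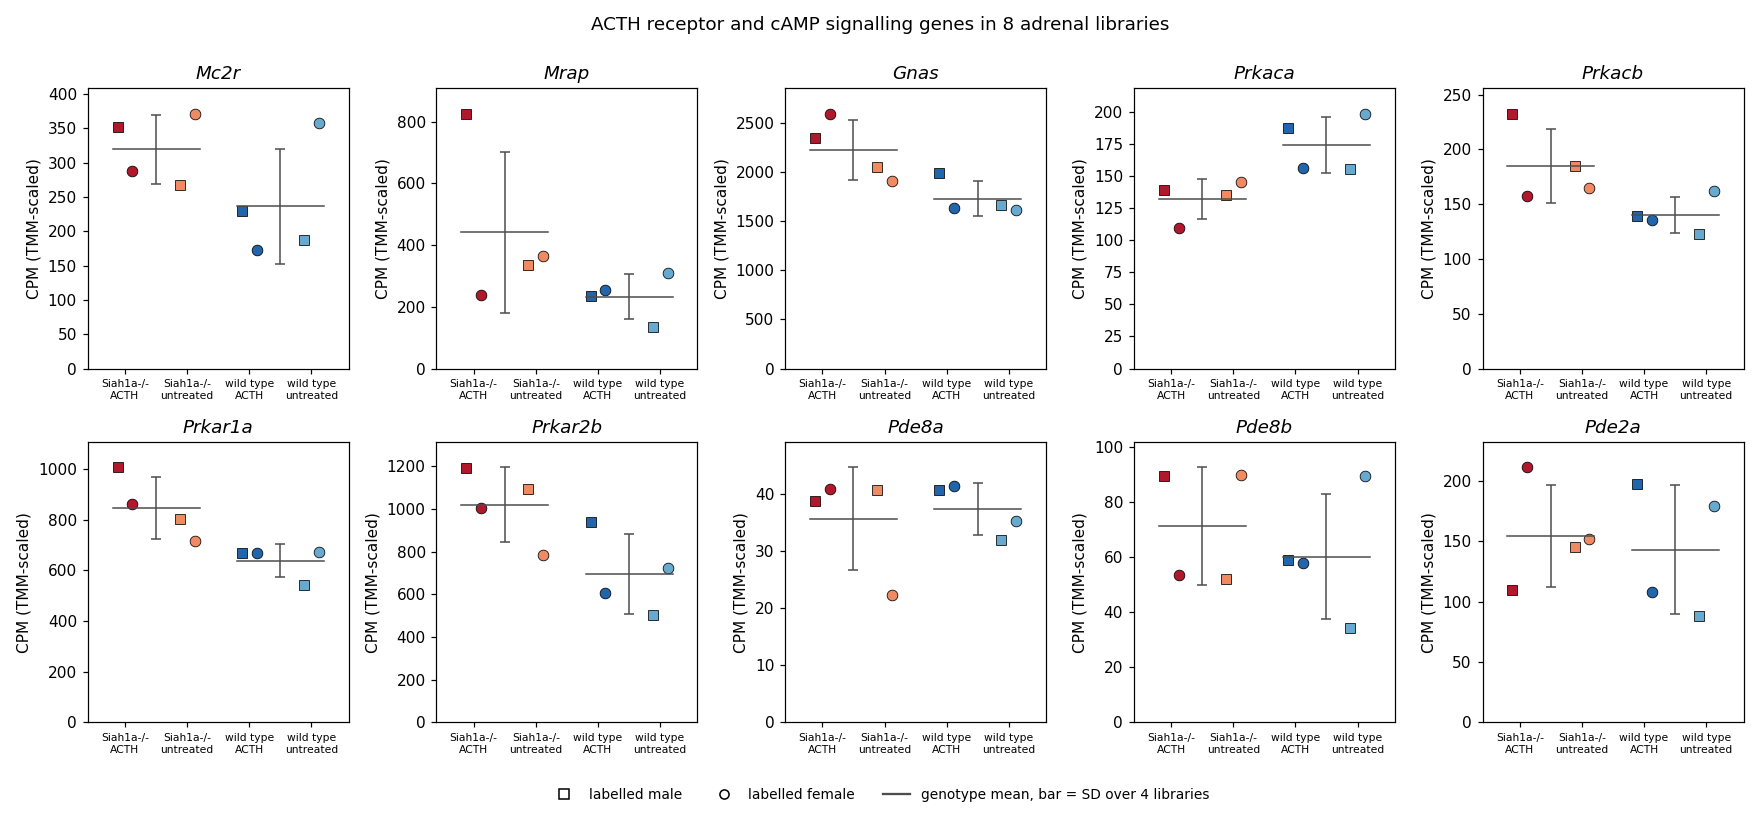
CPM of each of the 10 genes in the 8 libraries, by genotype and treatment (squares labelled male, circles labelled female; lines are genotype means and bars the SD over 4 libraries). The Siah1a-/- and wild-type ranges are separate for Prkaca and Prkar1a, and 1 ACTH-treated knockout library holds 826 CPM of Mrap.

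The first comparison set all 4 Siah1a-/- libraries beside all 4 wild-type libraries, with treatment and sex label as terms. The summed transcripts of Prkar1a, Prkar2b, Gnas and the catalytic subunit Prkacb averaged 1.29 to 1.47 times the wild-type level in the knockout. Those of the catalytic subunit Prkaca averaged 0.757 times the wild-type level. By edgeR's quasi-likelihood test 0 of the 10 had an adjusted p under 0.05, where 0.026% of all 15361 tested genes were called. At an unadjusted p under 0.05 there were 4 of the 10 (Gnas, Prkar1a and Prkar2b higher, Prkaca lower), where 13.4% of all tested genes reached that level (5.33% higher and 8.11% lower). Estimates were positive for 8 of the 10 and for 46.5% of all tested genes. The knockout was higher in all 4 pairs matched by label and treatment for 5 of the 10 (Mc2r, Gnas, Prkacb, Prkar1a and Prkar2b, with 10.8% of all tested genes) and in 0 of 4 for Prkaca (14.1% of all tested genes). The pairs include the male-labelled untreated wild-type library, whose Xist level went against its label. The median log2 fold change of the 10 was 0.37, and that of all tested genes -0.04. DESeq2 called 1 of the 10, Prkar2b, where it called 6.16% of all genes, and limma-voom called 0 of the 10. The edgeR count of 4 was 6 without the sex label, where 2202 of all 15361 tested genes reached that level. At the same level it was 6 in DESeq2 (2635 of all tested genes) and 5 in limma-voom (2174 of all tested genes). In edgeR it went to 1 without the 2 wild-type libraries with kidney or liver transcripts, where 1196 of 15922 tested genes reached that level. It ranged from 0 to 5 when single libraries were left out. It was 0 without the male-labelled untreated knockout library (1724 of 16324 tested genes). It was 1 without the male-labelled ACTH-treated knockout library (1588 of 16326) or the female-labelled ACTH-treated wild-type library (1313 of 16224). It was 2 without the male-labelled ACTH-treated wild-type library (1761 of 16384) and 5 without the female-labelled untreated wild-type library (2405 of 16381).

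**Figure D2:**
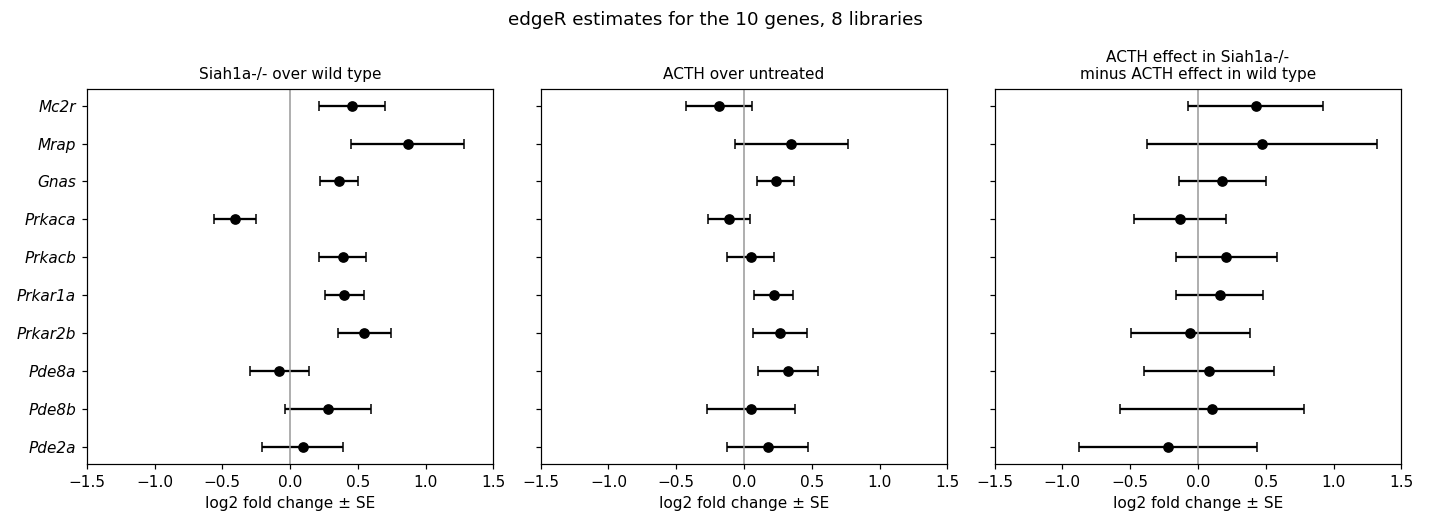
edgeR log2 fold changes with SE for the 10 genes in the 3 comparisons, all 8 libraries. In the genotype comparison Prkaca and Pde8a lie below 0 and the other 8 above it, from -0.41 for Prkaca to 0.87 for Mrap, and no estimate passed over all genes.

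Mc2r encodes the ACTH receptor, a G-protein-coupled receptor of the melanocortin family (chromosome 18, 68406899 to 68429320, mm10). It stood at 353 and 288 CPM in ACTH-treated and 267 and 371 CPM in untreated knockout libraries, against 229 and 172 CPM in ACTH-treated and 187 and 357 CPM in untreated wild-type libraries. The female-labelled untreated wild-type library lay within the knockout range, and the 2 lowest were those with kidney or liver transcripts. The means were 320 ± 50.1 CPM in the knockout and 236 ± 84.0 CPM in wild type (SD, n = 4 each; log2 fold change 0.46, SE 0.24; edgeR, adjusted p = 0.463). Without those 2 libraries the log2 fold change was 0.15 (SE 0.23), and it was 0.27 without the male-labelled ACTH-treated knockout library and 0.73 without the female-labelled untreated wild-type library. In the files 4 transcripts shared the Mc2r counts, and the largest of them held 47.9% to 72.6%.

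Mrap encodes the melanocortin 2 receptor accessory protein, without which the receptor does not reach the cell surface (chromosome 16, 90738207 to 90749785). It stood at 826 and 239 CPM in ACTH-treated and 335 and 365 CPM in untreated knockout libraries, against 234 and 253 CPM in ACTH-treated and 136 and 310 CPM in untreated wild-type libraries. A single library, the ACTH-treated knockout labelled male, held far more than any other, and the remaining 7 overlapped. The knockout averaged 441 ± 262 CPM and wild type 234 ± 72.6 CPM (SD, n = 4 each; log2 fold change 0.87, SE 0.42; edgeR, adjusted p = 0.423). Without that library the log2 fold change was 0.35, and it was 0.58 (SE 0.44) without the 2 wild-type libraries with kidney or liver transcripts. The RPKM ratio of Mrap to Mc2r was 3.84 there and between 1.19 and 2.42 in the other 7 libraries. Neuronal markers were also highest in that library, and their part in the Mrap level was not tested.

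Mc2r and Mrap did not share their closest companions among the 12854 genes with a mean log2 CPM of at least 1. Over the 8 libraries, genes whose log2 CPM followed Mc2r closely were Gpatch1 (Pearson r = 0.955), Mzt1 (0.950), Zdhhc20 (0.942) and Zzef1 (0.922). For Mrap they were Stambp (0.991), Ap3b1 (0.978), Dkk3 (0.978), Nrsn1 (0.972) and Nfx1 (0.970). The high library weighs on the second group, where Nrsn1 stood at 27.5 CPM in it and at no more than 4.79 CPM elsewhere. These are descriptions of 8 libraries that differ in depth and in tissue content.

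Gnas encodes the stimulatory G protein alpha subunit and lies at an imprinted locus with several alternative first exons (chromosome 2, 174284320 to 174346744). It stood at 2349 and 2596 CPM in ACTH-treated and 2050.4 and 1910.2 CPM in untreated knockout libraries, against 1992 and 1639 CPM in ACTH-treated and 1663 and 1617 CPM in untreated wild-type libraries. The ranges overlapped through 1 library of each genotype, and the knockout was higher in each of the 4 pairs matched by label and treatment. The means were 2226 ± 307 CPM in the knockout and 1728 ± 177 CPM in wild type (SD, n = 4 each; log2 fold change 0.36, SE 0.14; edgeR, adjusted p = 0.316). Without the 2 wild-type libraries it was 0.30 (SE 0.17). The antisense gene Gnasas1 overlaps this locus, and the labels do not say how strand was counted.

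The files split Gnas over 11 transcripts, of which 7 had a mean of at least 20 counts. A record whose counterpart in GENCODE is a processed transcript held 75.7% to 86.2% of the counts, and the record from the downstream start shown above held 8.76% to 19.4%. The first averaged 1852 ± 287 CPM in the knockout and 1368 ± 178 CPM in wild type (SD, n = 4 each). The downstream record, which is protein-coding, went the other way, at 240 ± 48.4 CPM in the knockout and 295 ± 21.2 CPM in wild type. It was higher in the knockout in 0 of the 4 matched pairs. Other protein-coding records did not follow it. NM_201616, which starts close by, averaged 46.6 ± 32.2 CPM in the knockout and 26.6 ± 9.96 CPM in wild type. NM_001310083 averaged 26.9 ± 12.3 and 20.6 ± 7.77 CPM. Each had overlapping ranges and was higher in the knockout in 3 of the 4 matched pairs. These records overlap, so the split rests on the authors' estimate. Of the 2 kept transcripts from the most upstream start, the more abundant (NM_019690), which encodes the neuroendocrine secretory protein NESP55, held 4.24% and 0.41% in ACTH-treated and 2.09% and 2.28% in untreated knockout libraries, against 0.94% and 0.73% in ACTH-treated and 1.04% and 0.80% in untreated wild-type libraries. It was high in 3 knockout libraries and lowest in the fourth. The other transcript from that start (NM_022000) held at most 0.691% in any library and did not follow this order, with 0.0696% and 0.353% in ACTH-treated and 0.691% and 0.0501% in untreated knockout libraries, against 0.133% and 0.0788% in ACTH-treated and 0.0185% and 0.0358% in untreated wild-type libraries. A sum of 6 chromaffin markers (Th, Dbh, Pnmt, Chga, Chgb and Slc18a1) was high in those 3 libraries as well. It stood at 6373 and 1809 CPM in ACTH-treated and 7407 and 6053 CPM in untreated knockout libraries, against 4020 and 2481 CPM in ACTH-treated and 2026 and 2792 CPM in untreated wild-type libraries. All 6 were detected, but not all followed the sum. The ratio of the knockout to the wild-type mean was 1.07 for Slc18a1, 1.77 for Chgb, 2.08 for Chga, 2.09 for Th, 2.10 for Pnmt and 2.27 for Dbh. Slc18a1 stood at 24.5 CPM in the female-labelled untreated knockout library and at 29.6 CPM in the male-labelled ACTH-treated wild-type library. The part of medullary tissue in the Gnas transcript was not tested.

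Protein kinase A consists of 2 regulatory and 2 catalytic subunits, and the regulatory subunits hold the catalytic ones inactive until cAMP binds. Prkar1a encodes the type I alpha regulatory subunit, whose loss-of-function mutations in humans cause Carney complex with adrenal nodules (chromosome 11, 109649023 to 109669663). It stood at 1006 and 861 CPM in ACTH-treated and 803 and 715 CPM in untreated knockout libraries, against 669 and 669.6 CPM in ACTH-treated and 541 and 672 CPM in untreated wild-type libraries. Every knockout library lay above every wild-type library. With Prkaca, Prkar1a made 2 of the 10 genes with separate ranges, against 8.92% of all tested genes (4.21% higher and 4.71% lower). Both genes also had separate ranges against the 2 wild-type libraries without kidney or liver transcripts alone, where 18.1% of all tested genes did. The means were 846 ± 122 CPM and 638 ± 64.4 CPM in knockout and wild type (SD, n = 4 each; log2 fold change 0.40, SE 0.14; edgeR, adjusted p = 0.285). Without the 2 wild-type libraries it was 0.32 (SE 0.19).

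Prkar2b encodes the type II beta regulatory subunit, abundant in endocrine, adipose and neural tissue (chromosome 12, 31958450 to 32061648). It stood at 1195 and 1007 CPM in ACTH-treated and 1095 and 784 CPM in untreated knockout libraries, against 940.5 and 608 CPM in ACTH-treated and 505 and 724 CPM in untreated wild-type libraries. The male-labelled ACTH-treated wild-type library lay inside the knockout range, and each of the 4 pairs was higher in the knockout. The means were 1020.2 ± 175 CPM in the knockout and 694 ± 187 CPM in wild type (SD, n = 4 each; log2 fold change 0.55, SE 0.20), with an adjusted p of 0.29 in edgeR and 0.0478 in DESeq2. Without the 2 wild-type libraries the edgeR log2 fold change was 0.28 (SE 0.18). The RPKM ratio of Prkar2b to Prkar1a averaged 1.21 ± 0.115 in the knockout and 1.08 ± 0.23 in wild type, with overlapping ranges.

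Prkaca encodes the catalytic alpha subunit, whose activating mutations in humans are found in cortisol-producing adenomas (chromosome 8, 83972978 to 83996444). It went the other way from Prkar1a and Prkar2b. It stood at 139 and 109 CPM in ACTH-treated and 135 and 145 CPM in untreated knockout libraries, against 187 and 156 CPM in ACTH-treated and 155 and 198 CPM in untreated wild-type libraries. All 4 knockout libraries lay below all 4 wild-type libraries in CPM. In the deposited RPKM the ranges overlapped, at 41.0 to 54.9 in the knockout and 52.5 to 76.2 in wild type. The means were 132 ± 15.6 CPM in the knockout and 174 ± 21.9 CPM in wild type (SD, n = 4 each; log2 fold change -0.41, SE 0.16; edgeR, adjusted p = 0.315). Without the 2 wild-type libraries it was -0.56 (SE 0.19).

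Prkacb encodes the catalytic beta subunit (chromosome 3, 146729579 to 146812946). It stood at 233 and 157 CPM in ACTH-treated and 185 and 165 CPM in untreated knockout libraries, against 139.7 and 136 CPM in ACTH-treated and 123 and 162 CPM in untreated wild-type libraries. The ranges overlapped by 1 library of each genotype. The means were 185 ± 33.9 CPM in the knockout and 140.1 ± 16.6 CPM in wild type (SD, n = 4 each; log2 fold change 0.39, SE 0.17; edgeR, adjusted p = 0.387). It was 0.27 (SE 0.22) without the 2 wild-type libraries and 0.24 without the male-labelled ACTH-treated knockout library.

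The balance of the 2 catalytic subunit mRNAs within a library, a ratio chosen after its values were seen and so given with no test, differed between the genotypes. The RPKM ratio of Prkaca to Prkacb was 1.12 and 1.30 in ACTH-treated and 1.38 and 1.65 in untreated knockout libraries, against 2.51 and 2.15 in ACTH-treated and 2.37 and 2.29 in untreated wild-type libraries. No knockout library came near the lowest wild-type value. The wild-type library with kidney transcripts had 2.37 and the one with liver transcripts 2.15. The ratio averaged 1.36 ± 0.222 in the knockout and 2.33 ± 0.149 in wild type (SD, n = 4 each). Prkaca made up 57.4% ± 3.94 of the RPKM of both catalytic genes in the knockout and 69.9% ± 1.35 in wild type. The RPKM of Prkar1a and Prkar2b together was 5.52 ± 0.904 times that of both catalytic genes in the knockout and 3.62 ± 0.44 times in wild type, with ranges of 4.35 to 6.55 and 3.22 to 4.17 that did not overlap. This ratio was not tested either. The ratios combine genes whose genotype differences are given above, so their separate ranges are no further support.

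**Figure D3:**
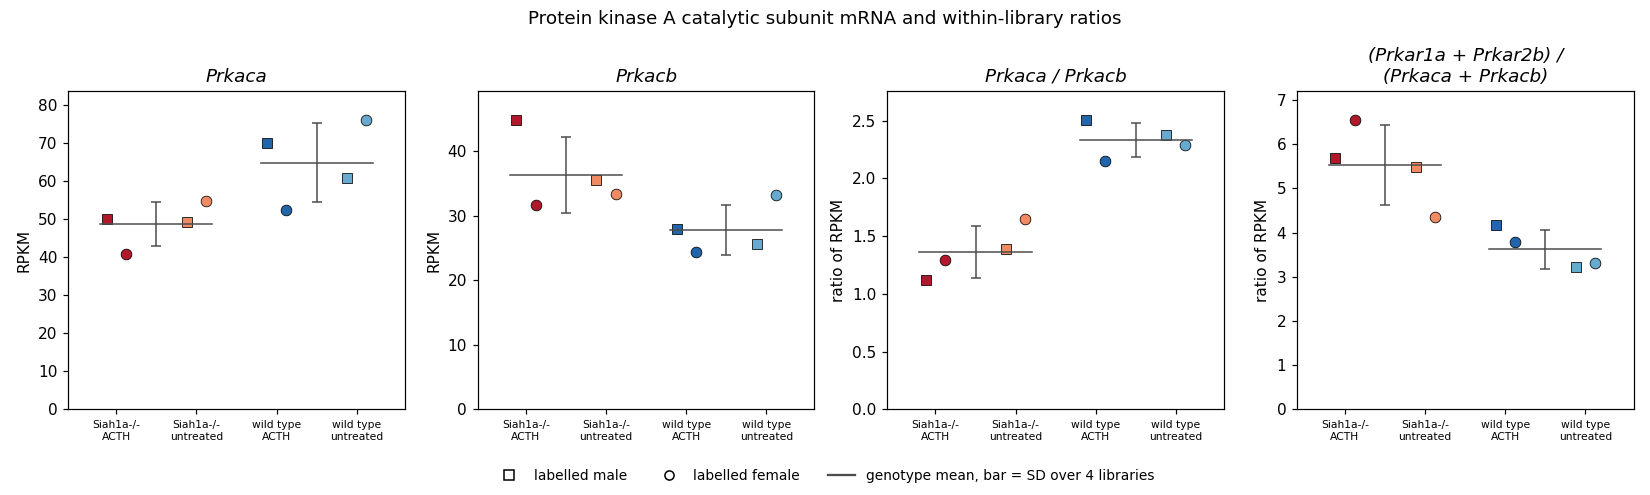
RPKM of the catalytic subunit genes, their ratio, and the ratio of regulatory to catalytic subunit RPKM in each library (squares labelled male, circles labelled female; lines are genotype means and bars the SD over 4 libraries). The Prkaca to Prkacb ratio lies between 1.12 and 1.65 in the Siah1a-/- libraries and between 2.15 and 2.51 in the wild-type libraries.

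The files list a pair of Prkaca transcripts that begin at the upstream and downstream starts shown above. The downstream one (NM_001277898) held 14.5% and 19.1% of the Prkaca counts in ACTH-treated and 71.7% and 46.1% in untreated knockout libraries, against 18.6% and 20.6% in ACTH-treated and 19.4% and 27.4% in untreated wild-type libraries. The 2 untreated knockout libraries stood apart from the other 6. The upstream transcript was at 119 and 88.5 CPM in ACTH-treated and 38.2 and 78.0 CPM in untreated knockout libraries. In wild type it was at 152 and 124 CPM in ACTH-treated and 125 and 144 CPM in untreated libraries. It was thus lower in every knockout library, also in the ACTH-treated ones. The downstream transcript averaged 51.1 ± 37.4 CPM in the knockout and 37.9 ± 11.2 CPM in wild type (SD, n = 4 each), with overlapping ranges. The downstream start is the one that lacked both the half-site and the GC box in its 250 bases. The split rests on the authors' estimate for overlapping transcripts and was not tested. The 4 transcripts of Prkacb held between 6.47% and 50.5% of its counts.

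**Figure D4:**
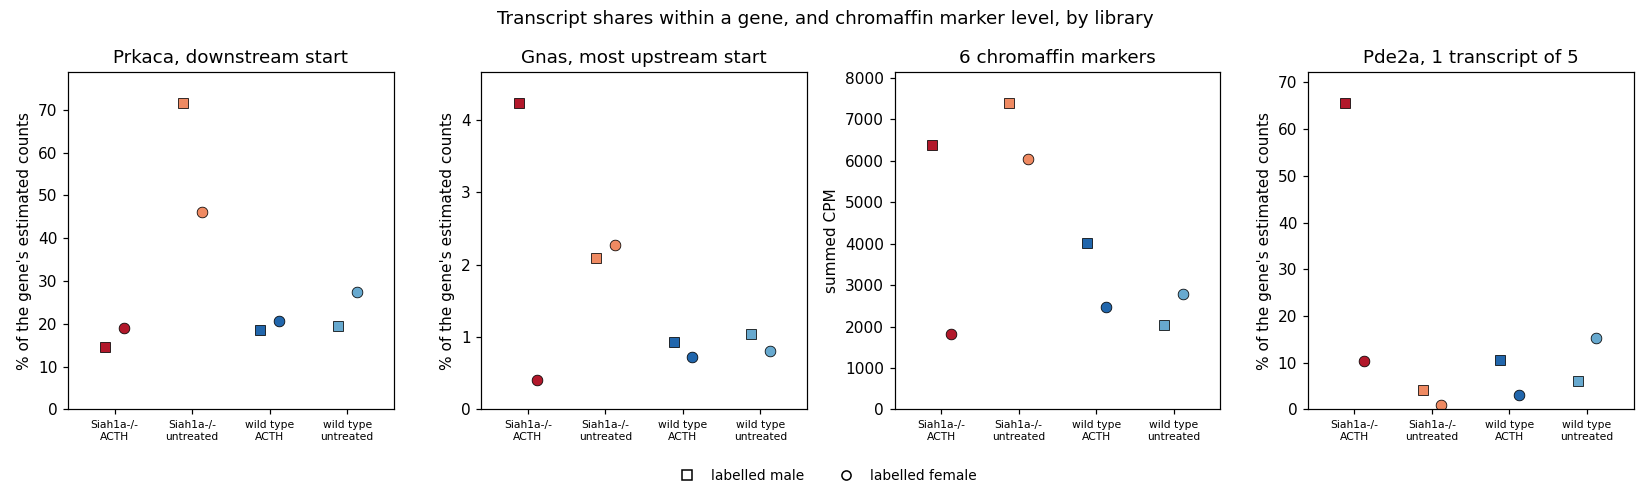
Share of a gene's estimated counts given to 1 transcript of Prkaca, Gnas and Pde2a, and summed CPM of 6 chromaffin markers, in each library (squares labelled male, circles labelled female). The Prkaca downstream transcript is at 71.7% and 46.1% in the untreated Siah1a-/- libraries and at most 27.4% elsewhere, and the Gnas transcript NM_019690 is above 2% in the 3 libraries with the most chromaffin marker signal.

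The levels of all 3 phosphodiesterase mRNAs overlapped between the genotypes. Pde8b encodes a high-affinity cAMP phosphodiesterase, inactivating variants of which are found in human adrenal hyperplasia (chromosome 13, 95024105 to 95250401). It stood at 89.5 and 53.4 CPM in ACTH-treated and 52.2 and 89.8 CPM in untreated knockout libraries, against 58.7 and 58.0 CPM in ACTH-treated and 34.1 and 89.3 CPM in untreated wild-type libraries. High and low libraries were found in both genotypes. The means were 71.2 ± 21.3 CPM in the knockout and 60.0 ± 22.6 CPM in wild type (SD, n = 4 each; log2 fold change 0.28, SE 0.32; edgeR, adjusted p = 0.756). It was -0.04 without the 2 wild-type libraries.

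Pde8a encodes the related PDE8A (chromosome 7, 81213265 to 81334535). It stood at 38.8 and 40.9 CPM in ACTH-treated and 40.7 and 22.3 CPM in untreated knockout libraries, against 40.7 and 41.3 CPM in ACTH-treated and 31.9 and 35.3 CPM in untreated wild-type libraries. The female-labelled untreated knockout library was the lowest, and the other 7 lay close together. The means were 35.7 ± 8.98 CPM in the knockout and 37.3 ± 4.52 CPM in wild type (SD, n = 4 each; log2 fold change -0.08, SE 0.22; edgeR, adjusted p = 0.912). It was 0.09 without that library and 0.0032 without the female-labelled untreated wild-type one.

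Pde2a encodes a phosphodiesterase stimulated by cyclic GMP (chromosome 7, 101421691 to 101512829). It stood at 109.7 and 211 CPM in ACTH-treated and 145 and 152 CPM in untreated knockout libraries, against 198 and 108 CPM in ACTH-treated and 88.1 and 179 CPM in untreated wild-type libraries. The lowest 2 wild-type values came from the libraries with kidney or liver transcripts. The means were 155 ± 42.1 CPM in the knockout and 143 ± 53.2 CPM in wild type (SD, n = 4 each; log2 fold change 0.09, SE 0.30; edgeR, adjusted p = 0.928), and the log2 fold change was -0.31 (SE 0.24) without those 2 libraries. Of its 5 transcripts, NM_001143848 held 65.7% in the male-labelled ACTH-treated knockout library and 0.99% to 15.3% in the other 7. Neuronal markers were highest in that same library, and their part in the split was not tested. Together Pde2a, Pde8a and Pde8b averaged 30.1%, 11.5% and 12.8% of the RPKM of 16 phosphodiesterase genes whose enzymes hydrolyse cAMP.

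The sum of the 6 adrenocortical markers had a higher mean in the knockout libraries, with overlapping ranges, and its members did not move together. The ratio of the knockout to the wild-type mean was 0.816 for Cyp11a1, 1.05 for Nr5a1, 1.07 for Star, 1.49 for Hsd3b1, 1.68 for Cyp21a1 and 1.74 for Cyp11b1. The sum stood at 50859.5 and 38071 CPM in ACTH-treated and 48892 and 46030.4 CPM in untreated knockout libraries, against 40973 and 33119.9 CPM in ACTH-treated and 26769 and 45059.6 CPM in untreated wild-type libraries. The knockout averaged 1.26 times the wild-type sum, or 1.07 times that of the other 2 wild-type libraries. Sums of cortical zone markers also differed in mean between the genotypes, with overlapping ranges. The 4 zona glomerulosa markers summed to 754 to 1449.8 CPM in knockout and 487 to 836 CPM in wild-type libraries, and the 3 X-zone markers to 172 to 7442 CPM in knockout and 3516 to 10021 CPM in wild-type libraries, and their part in the member levels was not tested. In whole glands, fewer cells of a type and less RNA per cell cannot be told apart. Divided by this sum, a measure chosen after the data were seen, Gnas, Prkar1a and Prkacb stood at 1.01, 1.04 and 1.02 times their wild-type means. Against the 2 wild-type libraries without kidney or liver transcripts they stood at 1.17, 1.19 and 1.14 times, where their undivided CPM stood at 1.23, 1.26 and 1.22 times. Over all 4 wild-type libraries, Mc2r stood at 1.09 times, Prkar2b at 1.17 times and Mrap at 1.47 times. Prkaca stood at 0.59 times, and at 0.641 times against those 2 libraries. Per 1000 CPM of marker sum it had 2.72 and 2.87 in ACTH-treated and 2.76 and 3.15 in untreated knockout libraries, against 4.57 and 4.72 in ACTH-treated and 5.79 and 4.40 in untreated wild-type libraries. On this measure Prkaca was the 1 of the 10 with separate ranges against all 4 wild-type libraries, where 9.63% of all tested genes had them, and against those 2 alone, where 16.6% had them.

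**Figure D5:**
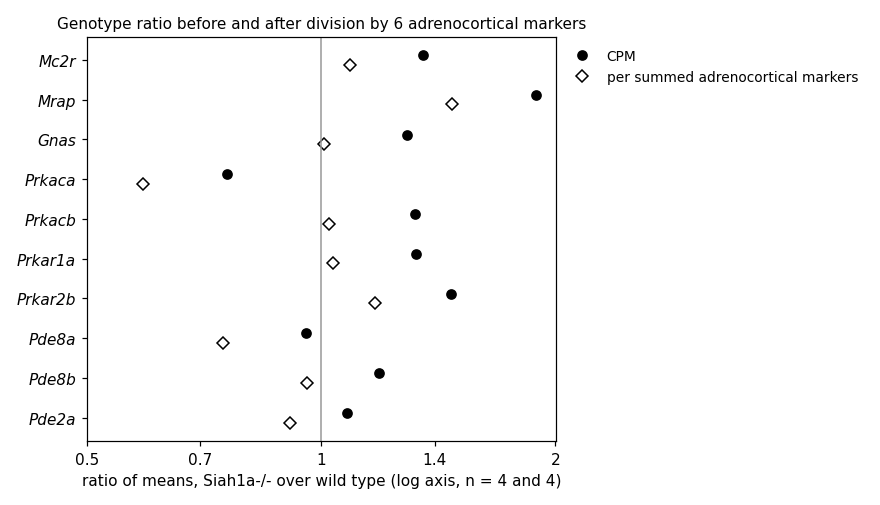
Ratio of the Siah1a-/- mean to the wild-type mean for each gene, in CPM (filled circles) and after division of each library by the summed CPM of 6 adrenocortical markers (open diamonds), on a log axis, n = 4 libraries of each genotype. After division Gnas, Prkacb and Prkar1a are at 1.01, 1.02 and 1.04 and Prkaca is at 0.59. Against the 2 wild-type libraries without kidney or liver transcripts, which are not drawn separately, the divided ratios are 1.17, 1.14, 1.19 and 0.641.

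The second comparison set the 4 libraries taken 1 hour after ACTH against the 4 untreated ones, averaged over genotype. The receptor and its signalling parts showed no call after ACTH. In edgeR 0 of the 10 passed over all genes (0.0195% of all tested genes did), 0 had an unadjusted p under 0.05 (6.11% of all tested genes did), and DESeq2 and limma-voom called 0 of the 10. The log2 fold changes ranged from -0.18 (SE 0.25) for Mc2r to 0.35 (SE 0.42) for Mrap, with a median of 0.20 against 0.02 over all tested genes. The smallest unadjusted p was that of Gnas. Gnas averaged 2144 ± 418 CPM in ACTH-treated and 1810.2 ± 205 CPM in untreated libraries (SD, n = 4 each; log2 fold change 0.23, SE 0.14; edgeR, adjusted p = 0.853), and it was the 1 gene of the 10 that was higher after ACTH in all 4 matched pairs, where 8.14% of all tested genes were. Mc2r averaged 261 ± 77.4 CPM after ACTH and 296 ± 85.9 CPM in untreated libraries, and its pairs were split evenly. No gene of the 10 had separate ranges, against 3.89% of all tested genes. Estimates were positive for 8 of the 10 and for 52.2% of all tested genes. Without the female-labelled untreated wild-type library, 1 of the 10 (Prkar2b) had an unadjusted p under 0.05 in edgeR, with a log2 fold change of 0.46. In that setting 1202 of 16381 tested genes reached that level.

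The third comparison asked whether the ACTH effect differed between the genotypes. In edgeR 0 of the 10 passed (0% of all tested genes did), 0 had an unadjusted p under 0.05 (1.84% of all tested genes did), and DESeq2 and limma-voom called 0 of the 10. The estimates ranged from -0.22 (SE 0.66) for Pde2a to 0.47 (SE 0.85) for Mrap, with a median of 0.13, against -0.09 over all tested genes. For Mrap the estimate was -1.02 without the male-labelled ACTH-treated knockout library and 1.24 without the female-labelled ACTH-treated knockout library. It was 1.58 (SE 0.72) without the 2 wild-type libraries with kidney or liver transcripts, with an edgeR adjusted p of 1. The SEs of the 10 estimates lay between 0.32 and 0.85.

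Other genes of the pathway were taken from 8 lists with 75 listed genes, of which 69 were tested. In the genotype comparison 0 of the 69 passed in edgeR, while 5 were higher and 6 lower at an unadjusted p under 0.05, where 13.4% of all tested genes reached that level. DESeq2 called 6 (Gnai3, Gnaq, Gnb4 and Prkar1b higher, Adcy9 and Adcy10 lower), where it called 6.16% of all tested genes, and limma-voom 0. The median log2 fold change was 0.05 over the 69. Among 19 G protein subunit and RIC8 genes, Gnb4, a beta subunit, had the smallest p, with 56.5 and 60.8 CPM in ACTH-treated and 54.7 and 60.6 CPM in untreated knockout libraries, against 36.2 and 24.4 CPM in ACTH-treated and 16.7 and 33.0 CPM in untreated wild-type libraries. Its ranges did not overlap, where those of 8.92% of all tested genes did not (log2 fold change 1.08, SE 0.26; edgeR, adjusted p = 0.156; DESeq2, adjusted p = 0.00652). Since Gnb4 was named by its p, the separate ranges are no further support. Its knockout mean was 2.11 times the wild-type mean. Against the 2 wild-type libraries without kidney or liver transcripts it was 1.68 times. The most abundant of that list, Gnb2 (133 RPKM) and Gng5 (123 RPKM), had log2 fold changes of 0.20 (SE 0.15) and 0.18 (SE 0.17). Ric8b, a chaperone of stimulatory alpha subunits, had 0.42 (SE 0.30).

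Of 9 tested adenylyl cyclases, 3 had a positive genotype estimate, where 46.5% of all tested genes did, and the median was -0.59. Some of the 9 had very few reads, with Adcy10 at 0.15 RPKM (124 counts over all libraries), Adcy2 at 0.26 RPKM and Adcy1 at 0.55 RPKM. Adcy9, the most abundant cyclase at 8.27 RPKM, stood at 56.3 and 63.6 CPM in ACTH-treated and 56.7 and 53.4 CPM in untreated knockout libraries, against 103 and 86.5 CPM in ACTH-treated and 75.9 and 108 CPM in untreated wild-type libraries. All knockout libraries were below all wild-type ones, as in 4.71% of all tested genes (log2 fold change -0.70, SE 0.17; edgeR, adjusted p = 0.156; DESeq2, adjusted p = 0.0139). Adcy9 also had the smallest genotype p of its list, so these separate ranges are no further support. Adcy6, close to it at 7.75 RPKM, had a log2 fold change of 0.02 (SE 0.19) by genotype. Of 13 other phosphodiesterases 5 had a positive estimate, against the same 46.5% of all tested genes, with a median of -0.56. Pde7a, a cAMP-specific enzyme, averaged 52.6 CPM in the knockout and 74.8 CPM in wild type (-0.49, SE 0.15; adjusted p = 0.216 in edgeR), and Pde3b averaged 66.6 CPM in the knockout and 113 CPM in wild type (-0.77, SE 0.50; adjusted p = 0.56 in edgeR). Pde3b is abundant in adipocytes. It was at 20.6 CPM in the male-labelled ACTH-treated knockout library and between 38.1 and 162 CPM in the other 7. The 7 adipocyte markers summed to 2776 to 7826 CPM in knockout and 2603 to 6176 CPM in wild-type libraries, and their part was not tested.

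Among the 6 other protein kinase A subunits, inhibitors and PRKX, Prkar1b averaged 39.5 CPM in the knockout and 18.4 CPM in wild type (log2 fold change 1.03, SE 0.28; edgeR, adjusted p = 0.197; DESeq2, adjusted p = 0.0297). Prkar2a averaged 46.1 and 60.9 CPM in knockout and wild type (-0.42, SE 0.28). Against the 2 wild-type libraries without kidney or liver transcripts, the knockout mean was 1.74 times as high for Prkar1b. For Prkar2a it was 1.03 times, where it was 0.757 times over all 4 wild-type libraries. Prkar1b is best known from neurons. Of 11 tested A-kinase anchoring proteins, which tether the kinase, Akap1 averaged 107 CPM in the knockout and 143 CPM in wild type (-0.42, SE 0.13; edgeR, adjusted p = 0.229), and Akap2 averaged 429 and 367 CPM (0.22, SE 0.14). The cAMP-regulated exchange factor Rapgef4 (EPAC2) was the most abundant of its list at 76.1 RPKM, above Prkaca, with a log2 fold change of 0.12 (SE 0.23), and Rapgef3 was at 3.35 RPKM. The receptor kinase Grk6 had -0.49 (SE 0.28) and Adrbk1 had -0.23 (SE 0.18). Mrap2, the one tested gene of the melanocortin list, averaged 0.664 RPKM.

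After ACTH 0 of the 69 passed in edgeR, while 6 were higher and 2 lower at an unadjusted p under 0.05, where 6.11% of all tested genes reached that level. DESeq2 called 2 as higher, where it called 0.801% of all tested genes, and limma-voom 0. Akap12, an anchoring protein also known as gravin, averaged 84.2 CPM in ACTH-treated and 23.8 CPM in untreated libraries (log2 fold change 1.68, SE 0.40; edgeR, adjusted p = 0.631; DESeq2, adjusted p = 0.00606). The adenylyl cyclase Adcy6 averaged 71.3 CPM after ACTH and 39.9 CPM in untreated libraries (0.85, SE 0.18; edgeR, adjusted p = 0.627; DESeq2, adjusted p = 0.0406). Pde4d, a cAMP-specific phosphodiesterase, had 1.13 (SE 0.35), Prkx 0.60 (SE 0.21) and the receptor kinase gene Adrbk2 0.81 (SE 0.29), all with edgeR adjusted p of 0.719 or more. In the third comparison 0 of the 69 passed in edgeR, DESeq2 or limma-voom, and 1 had an unadjusted p under 0.05 (Pkia, a protein kinase A inhibitor, with a negative estimate, named after its value was seen).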

How the data were processed

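Libraries were made with a directional kit and read as single reads of 75 bases, per the labels' protocols. The submitters' processing notes name FastQC 0.11, TopHat2 2.0.13, Bowtie2 2.2.5.0, Partek 6.6 and mm10, without order or settings. The authors deposited an estimated count and an RPKM value for each of 28678 RefSeq transcripts, per the file headers. Estimated counts were summed per symbol, rounded, filtered with filterByExpr (minimum count 10; 15361 genes kept) and scaled by TMM (0.888 to 1.065). RPKM were summed per symbol. Tests used edgeR 4.0.16 (quasi-likelihood F-test, R 4.3.3, all 8 libraries) with genotype, treatment and sex label (4 residual degrees of freedom), or with an interaction added (3). P-values were adjusted by Benjamini-Hochberg over all tested genes and called under 0.05. Alternatives were RLE factors, no filter, DESeq2 1.42.0, limma-voom (limma 3.58.1), no sex label, the interaction model, a block for matched pairs (added after the data were seen), and libraries left out. On simulated data, edgeR recovered 50% of 4-fold and 7% of 2-fold changes by genotype. These shares were 47% and 4.04% for ACTH, and 0% and 1% for the interaction. Replicates are separate animals. Positions and starts come from RefSeq and GENCODE M21 on the same build. The members and lists were chosen with earlier results of these data known. Named were the 10 members, the called genes of the pathway lists, and per list the 2 most abundant genes and the smallest p by genotype and by ACTH. For Mc2r and Mrap the 5 most correlated genes were named (log2 of CPM plus 0.5, mean of at least 1), except 1 that is not reported here, and genes that DESeq2 alone called were named after their values were seen.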

Additional observations from a re-analysis of the deposited data

Results flagged for a closer look

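Each of the 10 genes was examined for a library that stands apart from its group in 4 groups of 4 (each genotype and each treatment), which makes 40 groups. A library is listed where its gap to the nearest other, divided by the range of the group, was above Dixon's 95% critical value, which chance gives in about 1 of 20 groups. Of the 40 groups, 5 held such a library. In the ACTH-treated libraries, the knockout labelled male stood apart for Mrap at 826 CPM, with the other 3 at 234 to 253 CPM. The same library stood apart for Pde8b at 89.5 CPM, where the other 3 held 53.4 to 58.7 CPM. Among wild-type libraries, the ACTH-treated one labelled male stood apart for Gnas at 1992 CPM, and the untreated one labelled male for Prkar1a at 541 CPM. Among knockout libraries, the untreated one labelled female stood apart for Pde8a at 22.3 CPM.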

How the results depend on the processing

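The count of members called by genotype was 0 in edgeR and 1 with DESeq2 (Prkar2b, log2 fold change 0.56), and 0 under every other alternative run, as it was for ACTH and for the interaction under all of them. Without the 2 wild-type libraries with kidney or liver transcripts, the sign turned for Pde8b (-0.0366) and Pde2a (-0.31) by genotype, for Prkacb (-0.0376) and Pde8b (-0.12) after ACTH, and for Gnas (-0.0048), Prkaca (0.018) and Prkar2b (0.23) in the interaction. Pde8b after ACTH also turned with limma-voom (-0.0582) and without the sex label (-0.0367). When single libraries were left out, the genotype estimate ranged from -0.27 to 0.0901 for Pde8a, -0.0278 to 0.56 for Pde8b and -0.12 to 0.48 for Pde2a. After ACTH it ranged from -0.33 to 0.0514 for Mc2r, -0.15 to 0.72 for Mrap, -0.0886 to 0.20 for Prkacb, -0.23 to 0.35 for Pde8b and -0.20 to 0.39 for Pde2a. In the interaction it ranged from -0.15 to 0.87 for Mc2r, -1.02 to 1.24 for Mrap, -0.42 to 0.11 for Prkaca, -0.16 to 0.51 for Prkacb, -0.0802 to 0.37 for Prkar1a, -0.57 to 0.41 for Prkar2b, -0.36 to 0.58 for Pde8a, -0.82 to 0.65 for Pde8b and -0.98 to 0.58 for Pde2a. The cause was not tested. No paired analysis was possible by replicate number because the labels number no replicates across groups. A block for the pairs matched by sex label and treatment (genotype) or by sex label and genotype (ACTH), added after the data were seen, called 0 members in either comparison and turned no sign. At an unadjusted p under 0.05 in edgeR this block had 6 of the 10 by genotype, where 1988 of all 15361 tested genes reached that level. For ACTH it had 0 of the 10, where 850 of all 15361 did. The depth of the shallowest library (8020111) left 271 counts for Pde8a, the lowest of any member.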
